A study of Equus caballus with 24 samples.

Results

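The matrix metalloproteinases (MMPs), the ADAM, ADAMTS and ADAMTS-like genes and the tissue inhibitors of metalloproteinases (TIMPs) were examined in 24 RNA-seq libraries of horse pituitary and long bone. Members were chosen by name alone, as the rows of the deposited count table named MMP, ADAM, ADAMTS, ADAMTSL or TIMP with a number, and this gave 62 of 24232 genes. They comprised 18 MMP, 17 ADAM, 19 ADAMTS, 4 ADAMTSL and 4 TIMP genes. The study compared the short Debao pony (DP) with the taller Mongolian horse (MH), both native Chinese breeds, to look for genes related to body size. The pituitary gland (P) and the epiphysis at the end of a long bone (LB) were taken from 12 healthy females, 6 of each breed, which had received no treatment named in the labels. Each breed had 3 juveniles (J) and 3 adults (A). The 8 groups of 3 libraries were the juvenile pony and horse pituitary (DPPJ, MHPJ), the adult pony and horse pituitary (DPPA, MHPA), the juvenile pony and horse long bone (DPLBJ, MHLBJ) and the adult pony and horse long bone (DPLBA, MHLBA). Each library of a tissue came from a separate animal killed at a slaughterhouse, and which piece of the gland or of the bone end was ground was not given in the sources used here. Reads counted on genes ranged from 11433209 to 23573036 in the pituitary libraries and from 11616518 to 27007342 in the long bone libraries.

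MMPs are zinc-dependent endopeptidases that together can degrade nearly every protein of the extracellular matrix. Collagenases and gelatinases are best known in bone for the removal of cartilage and bone collagen at the growth plate and during remodelling, and the TIMPs bind active MMPs and block them. ADAMs are membrane proteins, of which the catalytic ones shed growth factors, cytokines and receptors from the cell surface, whereas others lack an active site and act in adhesion, several of them in neurons. ADAMTS proteases are secreted and cut proteoglycans such as aggrecan and versican, trim procollagen or act on other matrix proteins, and the ADAMTS-like proteins resemble them but lack the protease domain.

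Levels are given as deposited RPKM (reads scaled by gene length and library size), which can be compared between genes, and differences as log2 fold changes with their standard error (SE) from edgeR's quasi-likelihood test on the reads. A member was called a differentially expressed gene (DEG) at the study's threshold, an unadjusted P under 0.05 with a fold change over 2, and the p adjusted over all genes tested by the Benjamini-Hochberg method is given beside it. The libraries were not alike within their labels. In 5 pituitary libraries, namely the 3 MHPJ libraries, DPPA replicate 1 and MHPA replicate 1, the growth hormone gene GH had at most 142 reads, against at least 97101 in the other 7. In 4 of these 5 libraries the myelin gene MOG was between 91.9 and 235 RPKM, whereas in MHPJ replicate 2 it was at 0.81 RPKM. In the long bone, the cartilage collagen gene COL2A1 was between 668 and 2489 RPKM in DPLBJ replicates 2 and 3 and DPLBA replicates 1 and 3, at 123 RPKM in MHLBA replicate 1 and at most 5.68 RPKM in the other 7 libraries. In whole tissue, fewer cells of a type and less RNA per cell cannot be told apart, so a difference in a member can be either.

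In the long bone, secreted MMPs and their inhibitors had the highest mean levels of the members. MMP13, a collagenase of hypertrophic cartilage and bone, had the highest mean over the 12 long bone libraries at 408.5 RPKM and ranged from 12.6 to 1116 RPKM. It was followed by the gelatinases MMP9, with a mean of 220.3 RPKM, and MMP2, with a mean of 164.6 RPKM, and by TIMP2 and TIMP1, with means of 146.0 and 126.6 RPKM. MMP13, MMP9 and MMP2 together held between 28.0% and 84.3% of the summed MMP RPKM of a long bone library. The share was lowest in MHLBA replicates 3 and 1, at 28.0% and 37.7%, and at least 52.7% in the other 10 libraries. The ranges of these leading genes overlapped widely, so their order differed between libraries: in DPLBJ replicate 1, MMP2 stood at 366 RPKM and MMP13 at 184 RPKM.

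In the pituitary the leading members were other genes. TIMP2 had the highest mean at 85.6 RPKM, ahead of MMP7, or matrilysin, a small epithelial protease, at 73.8 RPKM and TIMP3, the inhibitor that stays bound to the matrix, at 40.3 RPKM. The sheddases ADAM9 and ADAM17 came next with means of 28.0 and 22.1 RPKM. MMP7 alone held between 39.3% and 64.8% of the summed MMP RPKM in the pituitary libraries, the lowest share being that of MHPJ replicate 2. ADAM17, which releases tumour necrosis factor and ligands of the epidermal growth factor receptor, was the steadiest member there, with a coefficient of variation of 20.2% over the 12 libraries, and ADAM9 was the steadiest in the long bone at 19.1%.

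The balance of MMPs to their inhibitors was summarised as the summed RPKM of the 18 MMP genes over that of the 4 TIMP genes. The ratio was 0.779 ± 0.0698 (SD, n = 3) in DPPA and 0.778 ± 0.0724 (SD, n = 3) in DPPJ, and it was 1.1 ± 0.148 (SD, n = 3) in MHPA and 1.26 ± 0.249 (SD, n = 3) in MHPJ. In the pituitary the 6 Debao pony libraries lay between 0.715 and 0.857 and the 6 Mongolian horse libraries between 0.996 and 1.51, so that the breeds did not overlap at either stage. In the long bone the ratio was 3.32 ± 1.01 (SD, n = 3) in DPLBJ against 1.86 ± 0.628 (SD, n = 3) in MHLBJ, and 4.23 ± 0.909 (SD, n = 3) in DPLBA against 2.30 ± 1.53 (SD, n = 3) in MHLBA. There the breeds overlapped at both stages, since MHLBJ replicate 2 reached 2.59 and MHLBA replicate 1 reached 3.86. Ratios are described here without a test.

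**Figure D1:**
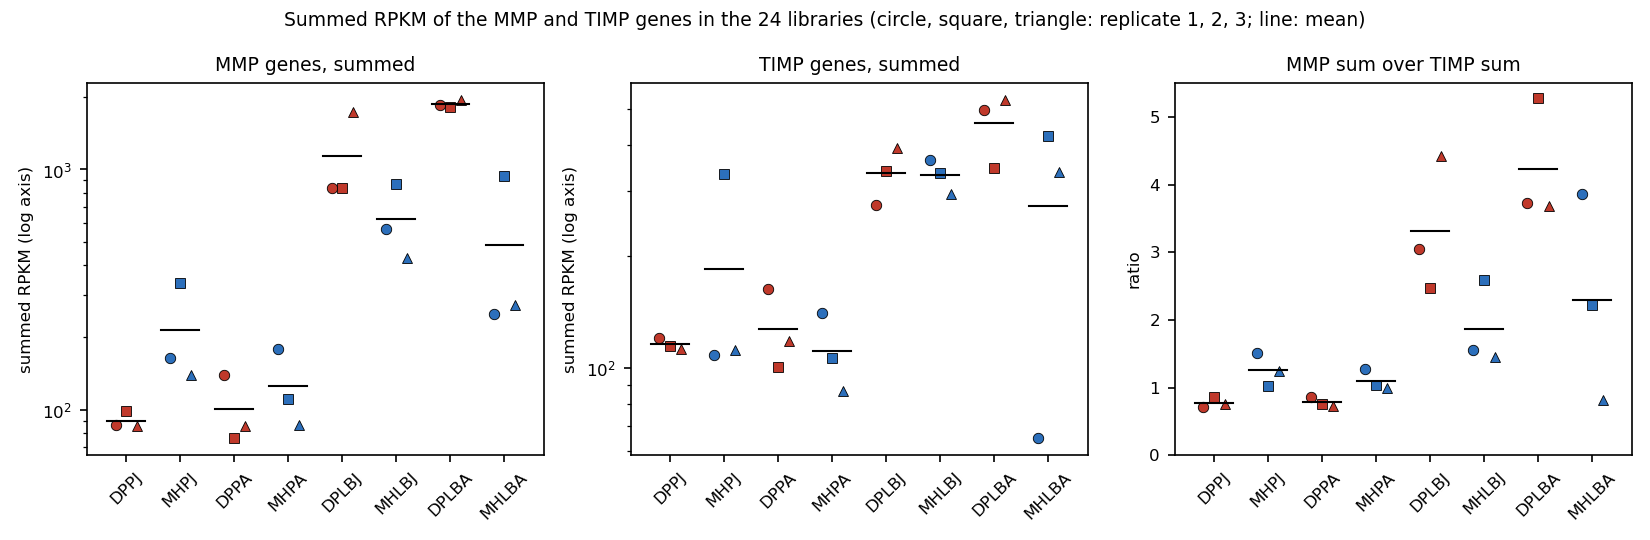
Summed RPKM of the 18 MMP genes (left, log axis), of the 4 TIMP genes (middle, log axis) and their ratio (right, axis from 0) in each of the 24 libraries, by group (red DP, blue MH; lines are means of 3). The summed MMP RPKM of DPLBA lay between 1825 and 1947 in all 3 libraries. In the pituitary the MMP to TIMP ratio of every DP library was below that of every MH library. All MHPJ libraries and no DPPJ library had few GH reads, so breed and tissue make-up cannot be told apart in juveniles.

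The comparison of the tissues asked where each member was expressed, over all 24 libraries as the mean of the 4 long bone groups minus the mean of the 4 pituitary groups. Both tissues came from the same 12 horses, but no label says which 2 libraries share a horse. This fit therefore had no term for the animal and treated the libraries as independent. Of the 62 members 57 could be tested, and 35 of them were higher in the long bone at an adjusted p under 0.05 and a fold change over 2, where 17.1% of all tested genes were. Another 10 members were lower in the long bone, where 21.2% of all tested genes were, and 12 were not called. The median log2 fold change of the tested members was 1.97, against -0.03 over all tested genes. Leaving out the 5 pituitary libraries with few GH reads also gave 45 called members, but not the same set, since ADAMTS19 and ADAMTS20 were no longer called.

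MMP9, a gelatinase of osteoclasts and neutrophils, differed most between the tissues. It lay between 0 and 4.13 RPKM in the pituitary libraries, with a median of 0.23, and between 18.2 and 540.2 RPKM in the long bone libraries, with a median of 198.2. No library of either tissue reached the other's range, and the log2 fold change was 9.41 with an SE of 0.71 (adjusted p = 4.39e-09). MMP13 ranged from 0.06 to 4.45 RPKM in the pituitary, with a median of 0.88, and from 12.6 to 1116 RPKM in the long bone, with a median of 248.1. Its log2 fold change was 8.71 with an SE of 0.60 (adjusted p = 1.69e-09), again without overlap. Leaving out the 5 pituitary libraries raised both values, to 10.81 for MMP9 and 9.26 for MMP13.

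Among the TIMPs, TIMP4 and TIMP1 differed between the tissues by more than the fold limit and TIMP2 and TIMP3 did not. TIMP4, the inhibitor of most restricted expression, ranged from 0 to 2.5 RPKM in the pituitary and from 2 to 50.0 RPKM in the long bone, with medians of 0.24 and 14.0 RPKM. The log2 fold change of this gene was 5.98 with an SE of 0.61 (adjusted p = 1.47e-07), and a single pituitary library, MHPJ replicate 2 at 2.5 RPKM, exceeded the lowest long bone library, DPLBA replicate 2. TIMP1, the inducible inhibitor, ranged from 0.81 to 21.0 RPKM in the pituitary, with a median of 7.85, and from 20.1 to 203 RPKM in the long bone, with a median of 126, and only DPPJ replicate 1 and MHLBA replicate 1 overlapped. Its log2 fold change was 4.02 with an SE of 0.35 (adjusted p = 2.52e-08). TIMP2 differed by a log2 fold change of 0.88 with an SE of 0.225 (adjusted p = 0.00231), which passed the p threshold but not the fold limit. TIMP3 gave 0.64 with an SE of 0.29 (adjusted p = 0.0613).

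The next members by size of the tissue difference were low or absent in the pituitary. MMP3, a stromelysin, gave a log2 fold change of 5.84 with an SE of 1.09 (adjusted p = 0.000137), with 2 long bone libraries at 28.3 and 25.45 RPKM and the other 10 between 0.06 and 1.3 RPKM. MMP19, at most 0.99 RPKM in the pituitary and between 0.9 and 11.2 RPKM in the long bone, gave 5.02 with an SE of 0.71 (adjusted p = 7.93e-06). ADAMTS14, which removes the amino-terminal propeptide of fibrillar procollagen, ranged from 0.06 to 3.11 RPKM in the pituitary and from 1.83 to 32.2 RPKM in the long bone. The log2 fold change of this gene was 4.99 with an SE of 0.45 (adjusted p = 3.47e-08). MMP8, the neutrophil collagenase, gave 4.06 with an SE of 0.65 (adjusted p = 2.84e-05), but within the Mongolian horse it was -0.60 in juveniles (adjusted p = 0.721) and 0.96 in adults (adjusted p = 0.347). In the adult Debao pony alone it was 7.68 (adjusted p = 0.000166), and the breeds are compared further on.

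Grouped by role, the secreted collagen-degrading MMPs and the procollagen-processing proteases stood on the long bone side. Both collagenases, both gelatinases and both stromelysins were higher in the long bone, as were ADAMTS2 and ADAMTS14 of the 3 procollagen N-proteinases and 5 of the 7 proteoglycan-cleaving ADAMTSs. ADAMTS7 and ADAMTS12, which cleave cartilage oligomeric matrix protein, were both higher, with log2 fold changes of 1.72 and 2.66. Of the 9 catalytic ADAMs, ADAM12, ADAM15, ADAM19 and ADAM33 were higher, while the widely expressed sheddases ADAM9, ADAM10 and ADAM17 were within 2-fold between the tissues. The membrane-type MMPs were divided: MMP14, the activator of pro-MMP2, MMP16 and MMP25 were higher in the long bone, and MMP15, MMP17 and MMP24 were lower.

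The members lower in the long bone included the brain-type genes of the families. MMP24, a membrane-type MMP of neurons, ranged from 0.28 to 5.83 RPKM in the pituitary and from 0 to 0.42 RPKM in the long bone, and MHPJ replicate 2 was the single pituitary library within the range of the bone. Its log2 fold change was -4.57 with an SE of 0.50 (adjusted p = 3.78e-07), and it was -4.57 again without the 5 libraries with few GH reads. MMP17 ranged from 1.51 to 19.4 RPKM in the pituitary and from 0.22 to 1.87 RPKM in the long bone, and its log2 fold change was -3.41 with an SE of 0.31 (adjusted p = 4.23e-08). MMP21, with at most 0.88 RPKM in any library, gave -3.74 with an SE of 0.81 (adjusted p = 0.00074).

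The 3 noncatalytic ADAMs with known roles in synapses were also lower in the long bone. ADAM11 gave a log2 fold change of -4.19 with an SE of 0.67 (adjusted p = 3.07e-05), ADAM22, the receptor of the secreted synaptic protein LGI1, -2.55 with an SE of 0.48 (adjusted p = 0.000148), and ADAM23 -1.66 with an SE of 0.37 (adjusted p = 0.000737). The values of ADAM11 and ADAM22 without the 5 libraries with few GH reads were -1.89 (adjusted p = 0.00904) and -1.80 (adjusted p = 0.00261). No such value is given for ADAM23. In edgeR on DPLBJ against DPPJ alone, ADAM23 gave -0.29 (adjusted p = 0.723), ADAM22 -0.74 (adjusted p = 0.494) and ADAM11 -3.42 (adjusted p = 0.00533). On MHLBJ against MHPJ alone they gave -3.17 (adjusted p = 0.00854), -3.72 (adjusted p = 0.0646) and -6.02 (adjusted p = 0.0154). ADAM28, which ranged from 1.86 to 81.8 RPKM in the pituitary and from 0.49 to 6.67 RPKM in the long bone, gave -2.19 with an SE of 0.42 (adjusted p = 0.000165). The remaining pair changed without those 5 libraries. ADAMTS20 gave -2.17 with an SE of 0.57 (adjusted p = 0.00278) but 0.24 without them (adjusted p = 0.677), and ADAMTS19 gave -1.87 with an SE of 0.45 (adjusted p = 0.00131) but -0.57 without them (adjusted p = 0.272).

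**Figure D2:**
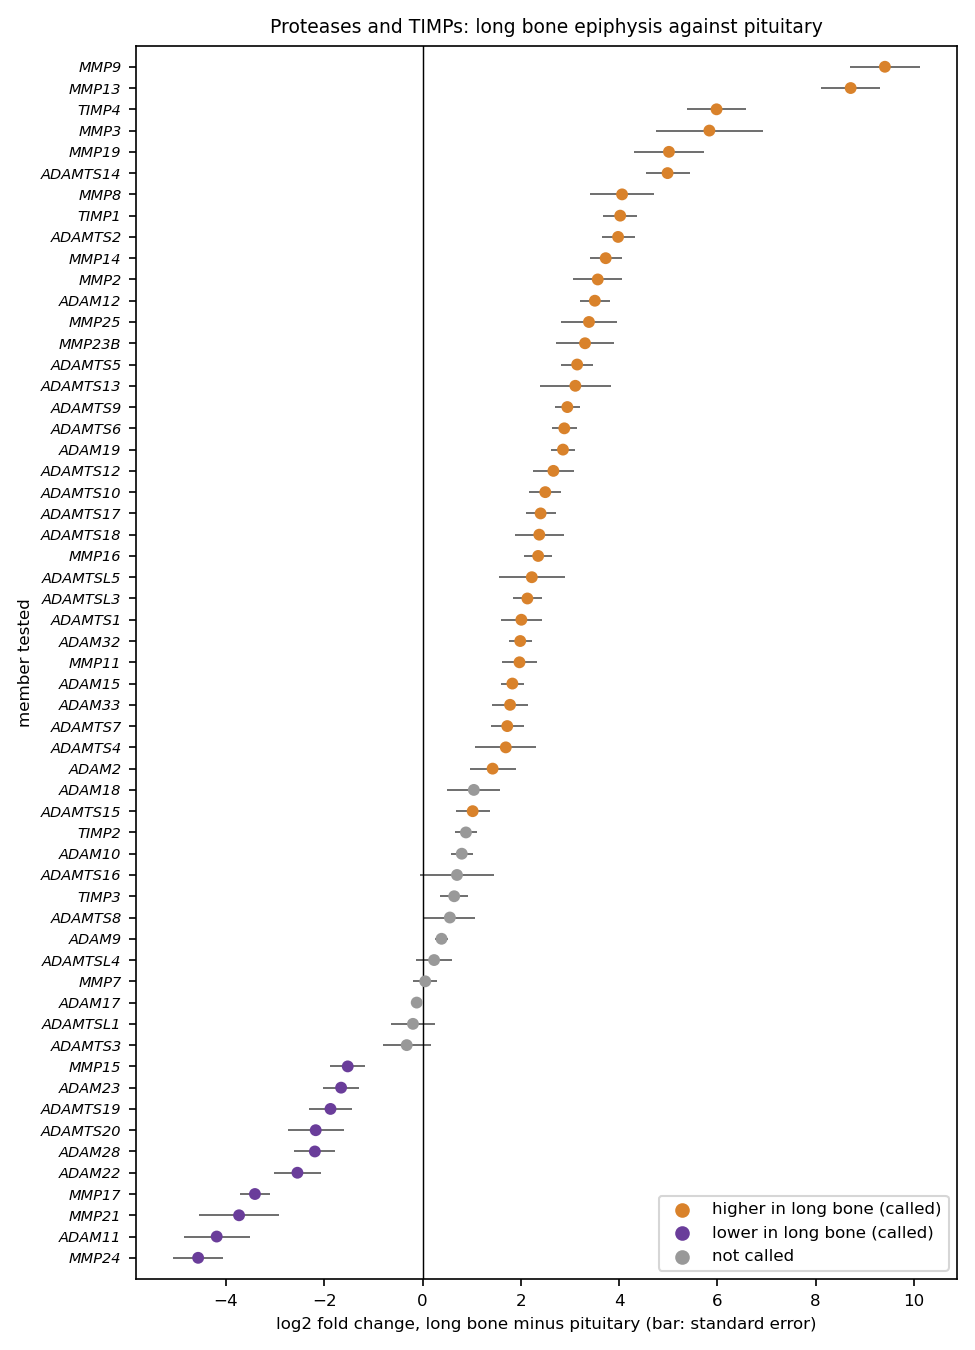
Log2 fold change of each of the 57 tested members, long bone minus pituitary, with its standard error (bars), in order of size; orange and purple mark the 35 members called higher and the 10 called lower in the long bone, and grey the 12 not called. MMP9 and MMP13 stand at the top at 9.41 and 8.71 and MMP24 at the bottom at -4.57.

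MMP7 was abundant in both tissues and its ranges overlapped. It lay between 46.4 and 133 RPKM in the pituitary and between 36.5 and 123 RPKM in the long bone, with medians of 58.1 and 56.8 RPKM, and its log2 fold change was 0.05 with an SE of 0.24 (adjusted p = 0.861). The 5 members that could not be tested had few reads or none. ADAM20, ADAM7, ADAM29 and MMP20 had at most 6, 5, 3 and 5 reads in any of the 24 libraries, and MMP27 at most 19.

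Several members lie side by side in the genome, by the order of protein-coding genes in the RefSeq annotation of the TB-T2T horse assembly, in which 59 of the 62 members could be matched by symbol. On chromosome 7, MMP7, MMP20, MMP27 and MMP8 follow each other, with MMP3 and MMP13 a little further along the same run. These neighbours differed widely in level: the mean over the long bone libraries was 408.5 RPKM for MMP13, 67.6 RPKM for MMP7, 13.4 RPKM for MMP8 and 4.87 RPKM for MMP3, whereas MMP20 and MMP27 did not exceed 0.11 and 0.46 RPKM. ADAMTS1 and ADAMTS5 are adjacent on chromosome 26, and ADAMTS8 and ADAMTS15 on chromosome 7. ADAMTS1 and ADAMTS5 were lower in the Debao pony long bone at both stages, as described next.

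The breed comparison in the long bone asked which members differed between the short and the tall breed at each stage. In juveniles (DPLBJ against MHLBJ), 52 members could be tested. Of these 6 were DEGs higher in the Debao pony, where 8.33% of all tested genes were, and 7 were DEGs lower, where 5.47% of all tested genes were. The median log2 fold change of the members was 0.34, against 0.05 over all genes. None passed an adjusted p under 0.05 in edgeR, where 15 had an unadjusted P under 0.05 (17.8% of all tested genes), and 7 passed it in DESeq2 (9.17% of all genes). In adults (DPLBA against MHLBA), 52 members could be tested. Of these 14 were DEGs higher in the Debao pony, where 10.3% of all tested genes were, and 3 were DEGs lower, where 8.03% were. Here 3 members passed an adjusted p under 0.05, where 2.24% of all tested genes did, and the median was 0.60 against -0.03 over all genes.

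The comparisons of the stages do not share libraries. Of the 50 members tested at both stages, 7 were DEGs at both, each in the same direction: MMP8, MMP25, ADAM19 and ADAMTS19 were higher in the Debao pony, and ADAMTS1, ADAMTS5 and ADAMTS12 were lower. These were 53.8% of the juvenile and 41.2% of the adult member DEGs. Over all 13550 genes tested at both stages the corresponding shares were 50.5% and 39.3%. The sign of the breed difference was the same at both stages for 39 of the 50 members, or 78.0%, against 72.5% of all genes.

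**Figure D3:**
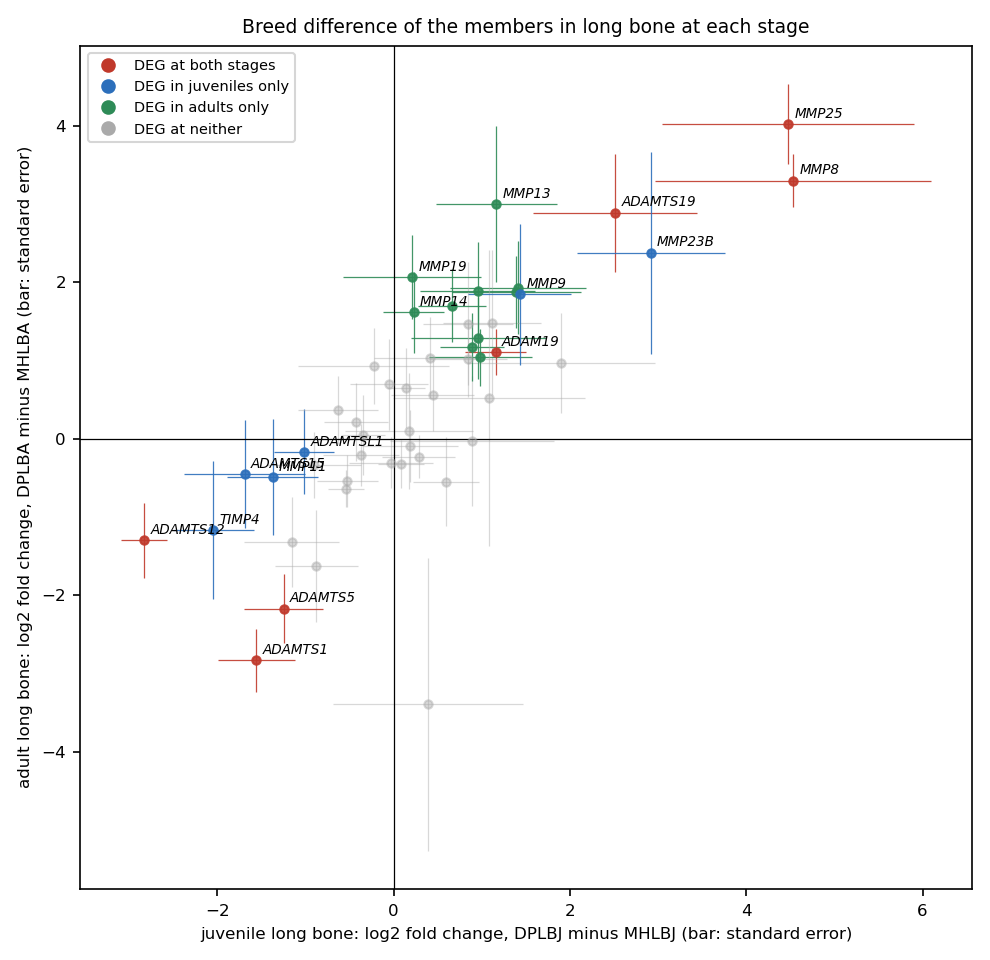
Log2 fold change between the breeds in the long bone for the 50 members tested at both stages, juvenile on the x axis and adult on the y axis, with standard errors as bars and colours for the DEG calls; names are given for DEGs of the juvenile comparison and for MMP13, MMP14 and MMP19. MMP8 and MMP25 lie in the upper right, at 4.53 and 4.47 in juveniles and 3.30 and 4.02 in adults, and ADAMTS1, ADAMTS5 and ADAMTS12 in the lower left.

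MMP8 and MMP25, the collagenase and the membrane-type MMP that neutrophils carry in their granules, were the most strongly raised members in the adult Debao pony bone. MMP8 was at 16.8, 11.3 and 19.8 RPKM in DPLBA replicates 1 to 3 and at 1.16, 1.80 and 1.52 RPKM in MHLBA. The groups were well apart, and its log2 fold change was 3.30 with an SE of 0.34 (adjusted p = 0.0206). MMP25 was at 6.5, 7.73 and 10.8 RPKM in DPLBA and at 0.45, 0.64 and 0.26 RPKM in MHLBA. The log2 fold change of this gene was 4.02 with an SE of 0.51 (adjusted p = 0.0223), and both genes remained DEGs whichever library was left out.

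In juveniles the same pair was uneven among the ponies. MMP8 was at 0.19, 76.8 and 26.2 RPKM in DPLBJ and at 1.20, 2.69 and 1.20 RPKM in MHLBJ, so that DPLBJ replicate 1 lay below every Mongolian horse library. The log2 fold change was 4.53 with an SE of 1.57 (adjusted p = 0.219), and it was 2.94 and no longer a DEG without DPLBJ replicate 2. Nor was it a DEG without MHLBJ replicate 1, 2 or 3, at 4.33, 5.03 and 4.30. MMP25 was at 0.64, 45.9 and 8.42 RPKM in DPLBJ and at 0.75, 1.68 and 0.42 RPKM in MHLBJ, and gave 4.47 with an SE of 1.43 (adjusted p = 0.201). It was 2.24 without DPLBJ replicate 2, 4.32 without MHLBJ replicate 1 and 4.09 without MHLBJ replicate 3, and was no longer a DEG in any of these fits.

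The same libraries were high in other neutrophil genes. Of 8 neutrophil markers listed, MPO and LTF were found in the table. LTF, encoding lactoferrin, was at 2.03, 1086 and 249.8 RPKM in DPLBJ and at 300.5, 157 and 192 RPKM in DPLBA, and at most 13.05 RPKM in MHLBJ and 8.14 RPKM in MHLBA. MPO, encoding myeloperoxidase, was at 0.18, 447 and 93.3 RPKM in DPLBJ and between 49.0 and 66.5 RPKM in DPLBA, against at most 9.10 RPKM in the Mongolian horse libraries of long bone. Both were DEGs higher in the Debao pony at both stages. The DPLBJ library with little MMP8 and MMP25 was also the one with little LTF and MPO, and the part of marrow neutrophils in the difference of MMP8 and MMP25 was not tested.

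**Figure D4:**
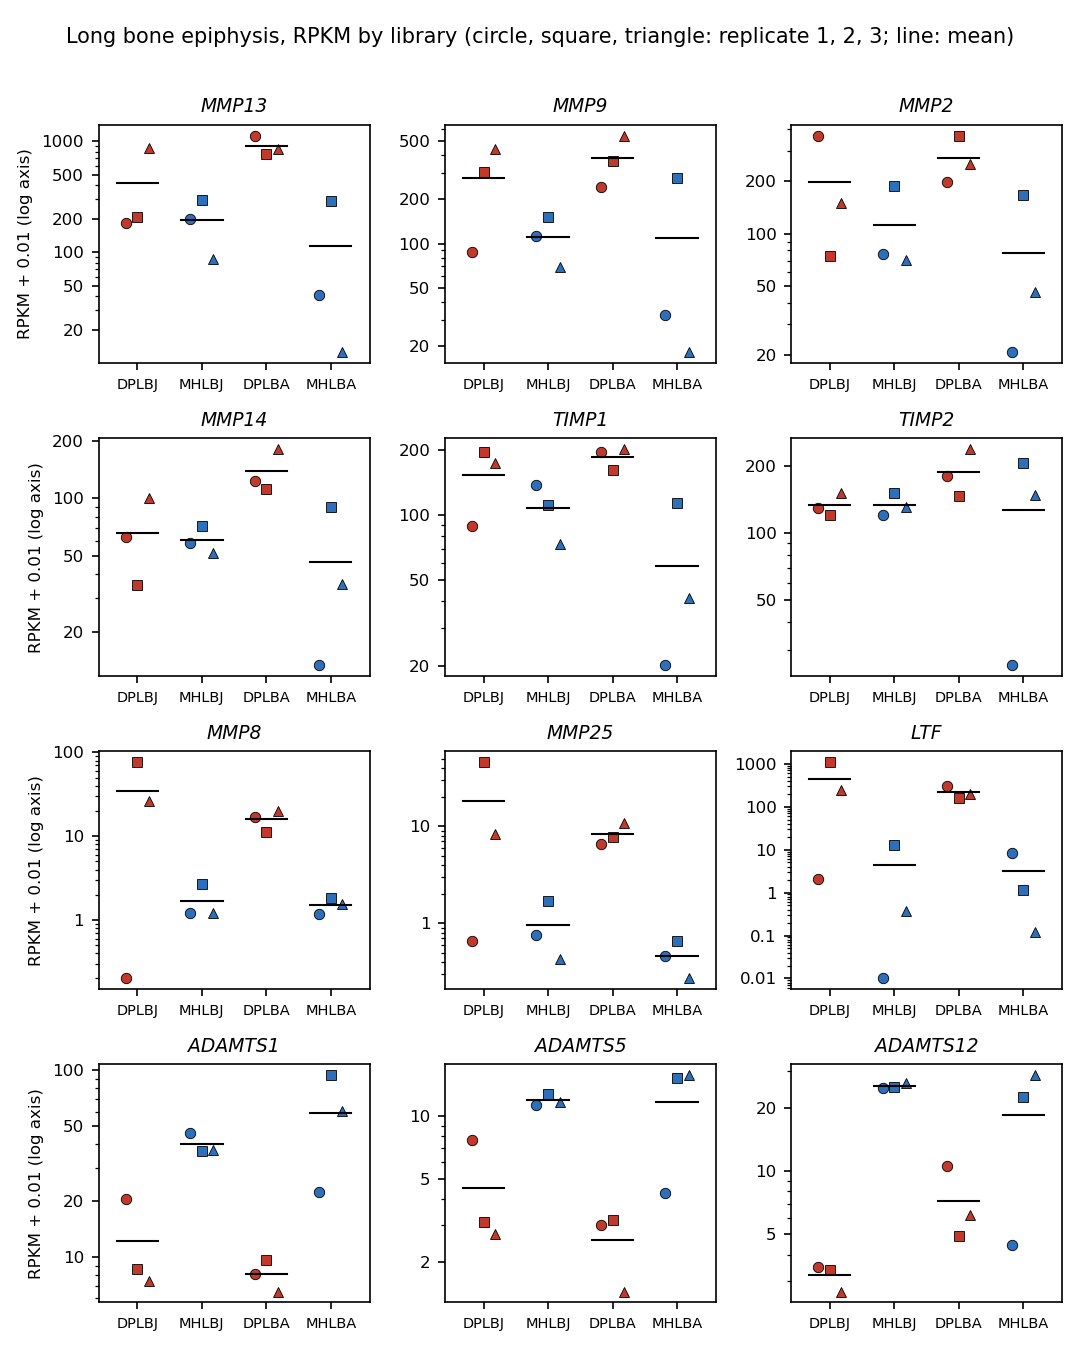
RPKM plus 0.01 on a log axis in the 12 long bone libraries by group (red DP, blue MH; circle, square and triangle for replicates 1, 2 and 3; lines are means) for 11 members and the neutrophil gene LTF. MMP8, MMP25 and LTF were high in the same 5 Debao pony libraries and low in DPLBJ replicate 1, and ADAMTS1 was lower in every DP library than in every MH library.

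ADAMTS1, ADAMTS5 and ADAMTS12 showed the opposite difference. ADAMTS1, which cleaves versican and aggrecan, was at 20.4, 8.65 and 7.46 RPKM in DPLBJ and at 45.8, 37.0 and 37.6 RPKM in MHLBJ. Its log2 fold change in juveniles was -1.55 with an SE of 0.43 (adjusted p = 0.165). In adults it was at 8.06, 9.65 and 6.52 RPKM in DPLBA and at 22.4, 93.9 and 60.1 RPKM in MHLBA, and the log2 fold change was -2.83 with an SE of 0.40 (adjusted p = 0.0249). All 6 pony libraries lay below all 6 Mongolian horse libraries, and no single library decided either call.

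ADAMTS5, the main aggrecanase of cartilage in mice, was at 7.68, 3.09 and 2.71 RPKM in DPLBJ and at 11.4, 12.8 and 11.7 RPKM in MHLBJ. The juvenile log2 fold change was -1.25 with an SE of 0.45 (adjusted p = 0.226). This call was lost without any 1 of 5 libraries, DPLBJ replicates 2 and 3 and MHLBJ replicates 1 to 3, with log2 fold changes from -1.29 to -0.94, and without DPLBJ replicate 1 it was -1.90. In adults ADAMTS5 was at 2.98, 3.16 and 1.43 RPKM in DPLBA and at 4.26, 15.3 and 15.7 RPKM in MHLBA, a log2 fold change of -2.17 with an SE of 0.44 (adjusted p = 0.0511) that held without each library.

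ADAMTS12, which cleaves cartilage oligomeric matrix protein, had the lowest P of all members in the juvenile comparison. It was at 3.50, 3.38 and 2.66 RPKM in DPLBJ and at 24.8, 25.1 and 26.2 RPKM in MHLBJ, so both groups were tight and far apart. The log2 fold change was -2.83 with an SE of 0.26 (adjusted p = 0.0958), and the call held without each library. In adults it was at 10.5, 4.89 and 6.15 RPKM in DPLBA and at 4.45, 22.4 and 28.6 RPKM in MHLBA, where MHLBA replicate 1 lay below the ponies. The adult value was -1.30 with an SE of 0.48 (adjusted p = 0.157), and the call was lost without DPLBA replicate 2 or 3 or MHLBA replicate 2 or 3, with values from -1.19 to -0.95.

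Cartilage and fat differed in the same comparisons. MHLBA replicate 1, the Mongolian horse library with 123 RPKM of COL2A1, had the lowest value of ADAMTS1, ADAMTS5 and ADAMTS12 among the 6 Mongolian horse libraries. DPLBJ replicate 1, at 3.50 RPKM of ADAMTS12, had 0.88 RPKM of COL2A1, 0.22 RPKM of ACAN and 23.7 RPKM of COL11A1, and DPLBA replicate 2, at 4.89 RPKM of ADAMTS12, had 5.68, 30.1 and 107 RPKM of these. Summed adipocyte markers ranged from 1770 to 4046 RPKM in DPLBJ and from 7235 to 9274 RPKM in MHLBJ, and from 1998 to 6703 RPKM in DPLBA and from 700.9 to 8782 RPKM in MHLBA. The part of either tissue in the 3 genes' differences was not tested.

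The other proteoglycan-cleaving ADAMTSs did not all follow ADAMTS1 and ADAMTS5. ADAMTS15 was a DEG lower in juvenile ponies, at 0.46, 0.45 and 0.09 RPKM in DPLBJ against 1.31, 1.48 and 0.93 RPKM in MHLBJ, a fold change of -1.69 on the log2 scale with an SE of 0.69 (adjusted p = 0.267). It was no longer a DEG without DPLBJ replicate 3, at -1.21, or without any 1 of the MHLBJ libraries. ADAMTS4 and ADAMTS9 were not DEGs at either stage. ADAMTS9 was at 21.1, 4.32 and 16.2 RPKM in DPLBJ and at 21.5, 23.3 and 40.7 RPKM in MHLBJ. The groups lay next to each other without overlap, and its log2 fold change was -0.91 with an SE of 0.54 (adjusted p = 0.421).

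In adults, a set of collagen-degrading genes was higher in the Debao pony. MMP13 was at 1116, 761 and 848 RPKM in DPLBA and at 41.0, 288 and 12.6 RPKM in MHLBA. The groups did not overlap, and the log2 fold change was 2.997 with an SE of 0.997 (adjusted p = 0.129). MMP14 was at 122, 112 and 181 RPKM in DPLBA and at 13.4, 90.45 and 35.8 RPKM in MHLBA, and MMP2 at 199, 365 and 253 RPKM in DPLBA and at 20.75, 166 and 45.8 RPKM in MHLBA. Their log2 fold changes were 1.62 and 1.88, with SEs of 0.52 and 0.64. The call of MMP14 was lost without DPLBA replicate 3, at 1.40, and that of MMP2 without DPLBA replicate 2 or MHLBA replicate 3, at 1.56 and 1.58.

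The spread among the adult Mongolian horses was wide for this set. MHLBA replicate 2 had values within 2-fold of a Debao pony library for MMP2 and MMP14, while MHLBA replicates 1 and 3 were low in them. Without MHLBA replicate 2 the log2 fold changes were 4.61 for MMP13, 2.43 for MMP14 and 2.95 for MMP2. MMP9, at 244, 366 and 540.2 RPKM in DPLBA and at 32.65, 277 and 18.2 RPKM in MHLBA, was not a DEG in adults, with a log2 fold change of 1.85 and an SE of 0.90 (adjusted p = 0.257). In juveniles MMP9 was a DEG, at 88.3, 305 and 439 RPKM in DPLBJ and at 112, 152 and 69.1 RPKM in MHLBJ, a value of 1.43 on the log2 scale with an SE of 0.58 (adjusted p = 0.265). That call was lost without DPLBJ replicate 2 or 3, at 1.27 and 1.07, and without MHLBJ replicate 1 or 3, at 1.43 and 1.16.

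The osteoclast, cartilage and bone-forming marker lists are given beside these genes because such cells are known to express MMP13, MMP9 and MMP14. In the adult comparison 1 of 6 osteoclast markers tested was a DEG (OCSTAMP, higher in the pony), 3 of 7 cartilage markers and 3 of 4 osteoblast markers were DEGs higher in the pony, and none was lower. In the juvenile comparison 0 of 6 osteoclast markers, 6 of 6 cartilage markers and 3 of 4 osteoblast markers were DEGs higher in the pony, and none was lower. Of 3 macrophage markers, none was a DEG in juveniles and CD163 and CSF1R were higher in the adult pony. Over all tested genes, 10.3% were DEGs higher in the pony and 8.03% lower in adults. The shares in juveniles were 8.33% and 5.47%. The summed cartilage markers ranged from 155 to 3945 RPKM in DPLBA and from 8.41 to 220.1 RPKM in MHLBA, and from 26.7 to 4931 RPKM in DPLBJ and from 5.26 to 24.3 RPKM in MHLBJ. What part these cells had in the members' differences was not tested. In DPLBA replicate 2, with 761 RPKM of MMP13, the cartilage markers COL2A1, ACAN and COL11A1 were at 5.68, 30.1 and 107 RPKM.

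TIMP1 and TIMP4 were the inhibitors that differed between the breeds in the long bone. TIMP1 was at 196, 162 and 203 RPKM in DPLBA and at 20.1, 114 and 41.3 RPKM in MHLBA. Its adult log2 fold change was 1.70 with an SE of 0.47 (adjusted p = 0.0915), and it held without each library. In juveniles TIMP1 was at 89.5, 196 and 175 RPKM in DPLBJ and at 138, 112 and 73.7 RPKM in MHLBJ, and gave 0.66 with an SE of 0.39 (adjusted p = 0.414). TIMP4 was at 8.22, 4.58 and 5.83 RPKM in DPLBJ and at 44.2, 14.9 and 26.2 RPKM in MHLBJ. Its juvenile log2 fold change was -2.04 with an SE of 0.46 (adjusted p = 0.141), and all 3 ponies were below all 3 Mongolian horses. In adults TIMP4 was at 18.65, 2 and 13.1 RPKM in DPLBA and at 3.01, 27.1 and 50.0 RPKM in MHLBA, where the groups overlapped and the log2 fold change was -1.16 with an SE of 0.88 (adjusted p = 0.454).

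TIMP2 and TIMP3 were not DEGs between the breeds in the long bone. TIMP2 was at 130.2, 121 and 151 RPKM in DPLBJ, at 121, 151 and 131 RPKM in MHLBJ, at 181, 146 and 239 RPKM in DPLBA and at 25.5, 207 and 148 RPKM in MHLBA. TIMP3 was at 47.3, 18.7 and 59.6 RPKM in DPLBJ, at 61.3, 57.8 and 63.3 RPKM in MHLBJ, at 101, 35.4 and 72.8 RPKM in DPLBA and at 16.2, 73.2 and 97.2 RPKM in MHLBA. The log2 fold changes of TIMP2 were 0.14 with an SE of 0.21 in juveniles and 0.65 with an SE of 0.51 in adults, and those of TIMP3 were -0.42 with an SE of 0.37 and 0.21 with an SE of 0.49. MHLBA replicate 1 had the lowest value of TIMP1, TIMP2 and TIMP3 among all long bone libraries.

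Among the remaining juvenile DEGs in the long bone, MMP23B and ADAM19 were higher in the ponies. MMP23B, a membrane-anchored MMP, was at 11.9, 4.32 and 3.32 RPKM in DPLBJ and at 0.19, 1.42 and 1.20 RPKM in MHLBJ, a log2 fold change of 2.92 with an SE of 0.84 (adjusted p = 0.173) that held without each library. ADAM19, a sheddase of neuregulin, was at 22.1, 9.98 and 19.5 RPKM in DPLBJ and at 6.79, 10.7 and 7.70 RPKM in MHLBJ, with one library of each breed overlapping, and gave 1.16 with an SE of 0.345 (adjusted p = 0.183). Without DPLBJ replicate 1 its log2 fold change was 0.90, under the fold limit, and it was also lost without MHLBJ replicate 1. ADAMTSL1, at 0.77, 1.03 and 0.91 RPKM in DPLBJ and at 2.67, 1.63 and 1.82 RPKM in MHLBJ, gave -1.01 with an SE of 0.34 (adjusted p = 0.213) and fell under the fold limit without DPLBJ replicates 1 or 3 or MHLBJ replicate 1. The other juvenile DEGs were ADAMTS19 at 2.51, which was 1.06 and no DEG without DPLBJ replicate 3, and MMP11 at -1.37 on the log2 scale. ADAMTS19 was also lost without any 1 of the 3 MHLBJ libraries, and MMP11 without DPLBJ replicates 2 or 3 or MHLBJ replicates 1 or 3, while without DPLBJ replicate 1 MMP11 was at -2.13.

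The remaining 8 adult DEGs in the long bone were all higher in the ponies. ADAMTSL4, an ADAMTS-like protein of fibrillin microfibrils, was at 3.34, 2.76 and 5.12 RPKM in DPLBA and at 0.34, 1.28 and 1.49 RPKM in MHLBA, a log2 fold change of 1.88 with an SE of 0.46 (adjusted p = 0.0733). MMP19 was at 11.02, 8.19 and 8.52 RPKM in DPLBA and at 0.90, 4.44 and 1.18 RPKM in MHLBA, and gave 2.07 with an SE of 0.54 (adjusted p = 0.0832). ADAMTS19 was low throughout, at 0.44, 0.99 and 1.64 RPKM in DPLBA and at 0.12, 0.05 and 0.22 RPKM in MHLBA, and gave 2.89 with an SE of 0.755 (adjusted p = 0.0836). These 3 calls held without each library.

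ADAM19 was at 12.3, 14.6 and 13.8 RPKM in DPLBA and at 2.74, 8.58 and 7.71 RPKM in MHLBA, a log2 fold change of 1.11 with an SE of 0.29 (adjusted p = 0.0845), and it was 0.91 without MHLBA replicate 1. The others were ADAMTS14 at 1.93, ADAMTS10 at 1.29, MMP15 at 1.17 and ADAMTS6 at 1.04 on the log2 scale. ADAMTS14 held without each library, whereas ADAMTS10, MMP15 and ADAMTS6 were each lost without DPLBA replicate 2 or 3, and ADAMTS10 also without MHLBA replicates 1 or 3, MMP15 without MHLBA replicate 2 and ADAMTS6 without MHLBA replicate 3. ADAMTS17, a gene linked to the height of horses, was not a DEG between the breeds in the long bone, at 28.25, 11.1 and 9.66 RPKM in DPLBJ, at 12.96, 19.0 and 24.4 RPKM in MHLBJ, at 10.6, 21.3 and 15.8 RPKM in DPLBA and at 13.9, 19.5 and 22.9 RPKM in MHLBA, and the ponies and horses overlapped at both stages.

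In the juvenile pituitary (DPPJ against MHPJ) 48 members could be tested, and 21 were DEGs lower in the Debao pony, where 12.7% of all tested genes were. No member was a DEG higher in the pony, where 7.6% of all tested genes were. By the adjusted p, 6 members passed, where 8.73% of all tested genes did, and all 6 were lower in the pony. The median log2 fold change of the members was -1.49, against -0.07 over all genes. The comparison sets libraries rich in pituitary hormones against libraries almost without them. Summed RPKM of the 5 hormone genes found (of 7 listed) ranged from 33560 to 42460 in DPPJ and from 0.12 to 9.89 in MHPJ, and summed oligodendrocyte markers from 87.3 to 1551 in DPPJ and from 2769 to 4549 in MHPJ. Since no MHPJ library had hormone genes at the level of any DPPJ library, breed and this make-up of the tissue cannot be told apart in juveniles.

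ADAMTS19 had the lowest P. It was at 0.69, 0.46 and 0.42 RPKM in DPPJ and at 5.80, 6.11 and 2.59 RPKM in MHPJ, and its log2 fold change was -3.40 with an SE of 0.45 (adjusted p = 0.0166). The synaptic ADAM23 was at 3.32, 4.80 and 2.35 RPKM in DPPJ and at 18.1, 11.6 and 28.2 RPKM in MHPJ, and gave -2.66 with an SE of 0.435 (adjusted p = 0.0243). ADAM11 was at 0.34, 0.37 and 0.45 RPKM in DPPJ and at 5.30, 1.08 and 8.86 RPKM in MHPJ, and gave -3.90 with an SE of 0.78 (adjusted p = 0.036). The groups of these 3 genes were fully apart. ADAM11 was lowest, within MHPJ, in replicate 2, which was also the library with 6.12 RPKM of the neuronal gene SNAP25 where the others had 487 and 460.1 RPKM.

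MMP7, the second most abundant member of the pituitary, differed by a smaller but tight margin. It was at 50.9, 56.7 and 49.3 RPKM in DPPJ and at 107, 133 and 81.9 RPKM in MHPJ, a log2 fold change of -1.23 with an SE of 0.23 (adjusted p = 0.0295), and without MHPJ replicate 2 it was -0.99, just under the fold limit. ADAM19 was at 1.37, 1.23 and 0.84 RPKM in DPPJ and at 3.21, 4.79 and 2.45 RPKM in MHPJ, and gave -1.80 with an SE of 0.38 (adjusted p = 0.0402). MMP17, a membrane-type MMP anchored by a glycolipid, was at 4.64, 5.60 and 6.27 RPKM in DPPJ and at 9.20, 19.4 and 13.2 RPKM in MHPJ, and gave -1.56 with an SE of 0.35 (adjusted p = 0.0457). The adjusted calls were sensitive to single libraries. Without MHPJ replicate 2 the number of members passing the adjusted p was 20, where 26.9% of all tested genes passed. Without DPPJ replicate 1 or 3 or MHPJ replicate 1 it was 0. The share of all tested genes is not given for those fits, so a loss particular to the members is not shown.

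ADAMTS8 and ADAMTS9 completed the 8 members of lowest P. ADAMTS8 was at 0.07, 0.12 and 0.06 RPKM in DPPJ and at 1.87, 20.2 and 0.69 RPKM in MHPJ, a log2 fold change of -6.69 with an SE of 1.58 (adjusted p = 0.0505). Its largest value, in MHPJ replicate 2, was 10.8 times the next highest of the 24 libraries, and without that library the log2 fold change was -4.00. ADAMTS9 was at 1.89, 2.55 and 1.46 RPKM in DPPJ and at 3.88, 3.96 and 3.02 RPKM in MHPJ, and gave -1.07 with an SE of 0.27 (adjusted p = 0.0553). It was under the fold limit, at -0.88 and -0.95, without DPPJ replicate 3 and without MHPJ replicate 2.

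The other 13 juvenile pituitary DEGs had log2 fold changes from -3.87 to -1.03, namely ADAMTS20 at -3.87, ADAMTS14 at -3.76, MMP15 at -3.20, MMP13 at -3.19, ADAMTS3 at -3.07, ADAMTS17 at -2.70, ADAMTS7 and ADAMTS1 at -2.30, ADAMTS2 at -1.97, MMP21 at -1.84, ADAMTS6 at -1.61, ADAM15 at -1.47 and TIMP2 at -1.03. Several of them were led by MHPJ replicate 2, a library that had 28.4 RPKM of COL2A1 and the lowest level of the 12 pituitary libraries for the neuronal genes SNAP25, SYT1 and RBFOX3 and the astrocyte genes AQP4 and SLC1A3. It was not the lowest for the other markers of these lists, with 124 RPKM of NEFM, 26.45 RPKM of GFAP and 26.3 RPKM of ALDH1L1. In it MMP15 was at 75.5 RPKM against 9.02 and 6.19 RPKM in the other MHPJ libraries, and ADAM10, not a DEG, at 67.9 RPKM against 18.01 and 15.3 RPKM. Without that library ADAMTS1, ADAMTS2, ADAMTS7, TIMP2 and ADAM15 were under the fold limit, at -0.91, -0.71, -0.73, -0.48 and -0.78, and MMP15 and ADAMTS17 remained DEGs at -1.10 and -1.75. Of the 21 DEGs, 11 held whichever library was left out, and ADAM15, ADAMTS2, ADAMTS3, ADAMTS7, MMP15 and TIMP2 were lost without any 1 of the DPPJ libraries, ADAMTS1 without DPPJ replicates 1 or 3, and MMP21 without DPPJ replicates 2 or 3 or MHPJ replicate 3. ADAMTS3 was also lost without MHPJ replicates 1 or 3. TIMP2 was at 68.9, 71.7 and 68.4 RPKM in DPPJ and at 84.9, 194 and 90.0 RPKM in MHPJ.

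The other TIMPs were not DEGs in the juvenile pituitary. TIMP1 was at 21.0, 13.9 and 6.89 RPKM in DPPJ and at 1.61, 8.74 and 0.81 RPKM in MHPJ, with one horse library within the range of the ponies. TIMP3 was at 30.3, 29.5 and 37.1 RPKM in DPPJ and at 21.98, 128 and 20.7 RPKM in MHPJ, where MHPJ replicate 2 again stood alone. TIMP4 was at 0, 0 and 0.10 RPKM in DPPJ and at 0.32, 2.50 and 0.21 RPKM in MHPJ.

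**Figure D5:**
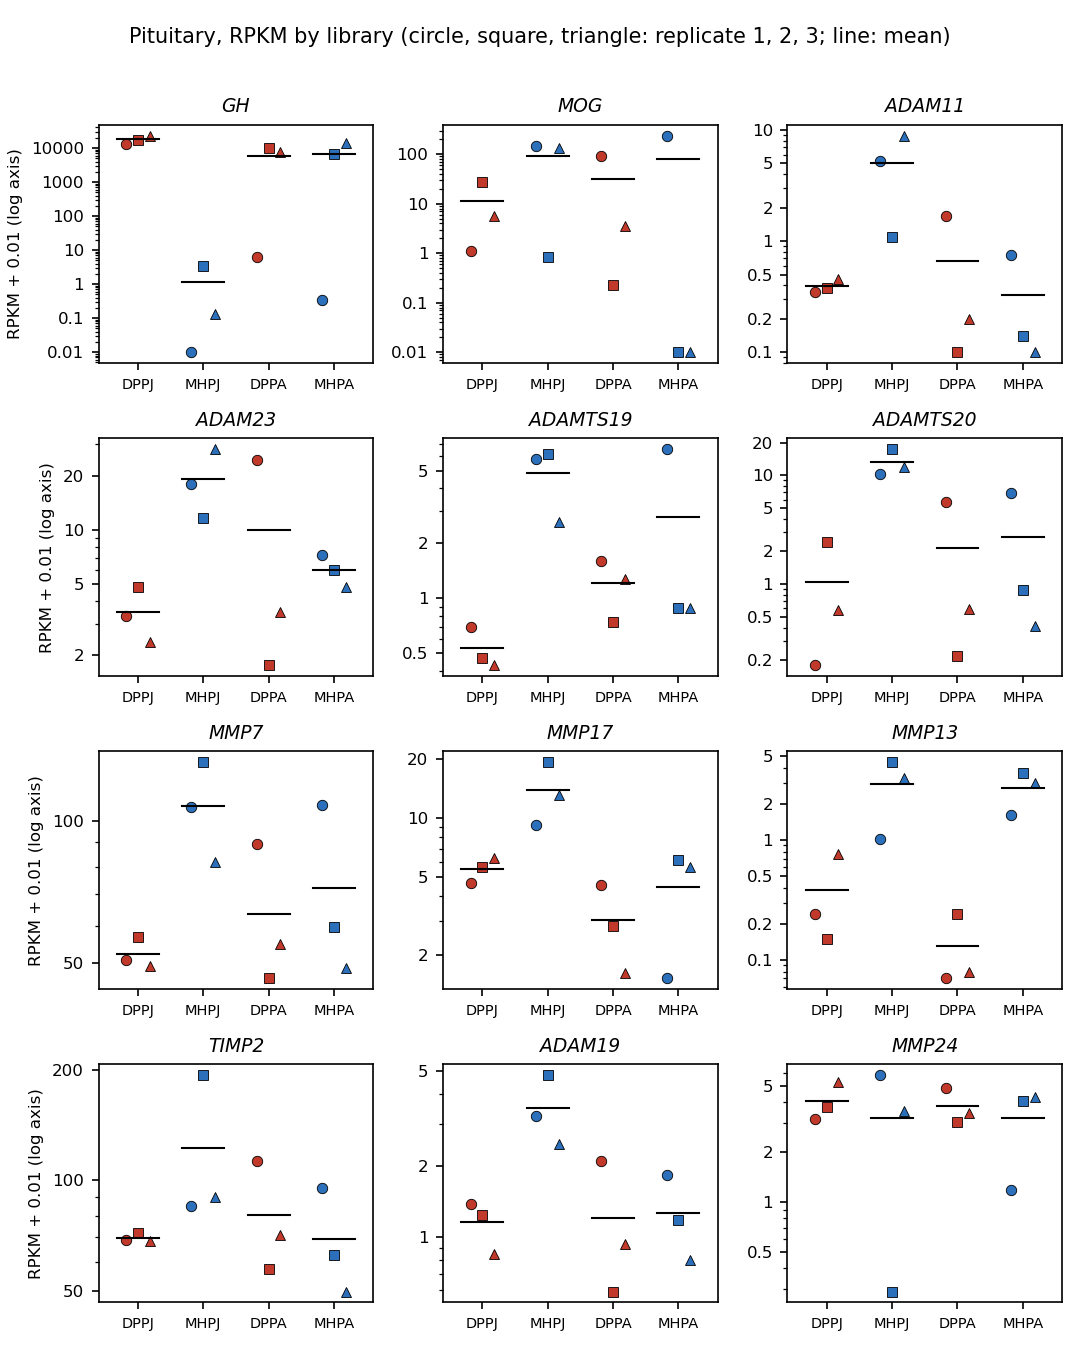
RPKM plus 0.01 on a log axis in the 12 pituitary libraries by group (red DP, blue MH; circle, square and triangle for replicates 1, 2 and 3; lines are means) for the hormone gene GH, the myelin gene MOG and 10 members. ADAM23 was high in the 3 MHPJ libraries and in DPPA replicate 1, all of which had few GH reads. MMP13, with 5 to 59 reads in the DP libraries, was lower in every DP than in every MH library.

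In the adult pituitary (DPPA against MHPA) 44 members could be tested, and 2 were DEGs: 1 higher in the pony, where 1.75% of all tested genes were, and 1 lower, where 1.18% were. None passed the adjusted p in edgeR, where 2 had an unadjusted P under 0.05 (9.11% of all tested genes), and 1 did in DESeq2 (0.945% of all genes). The groups are mixed here, since replicate 1 of each was one of the libraries with few GH reads, and same-numbered libraries deviated together. With the replicate number as a block, 4 members were DEGs, namely ADAMTS6, higher in the pony, and MMP13, ADAMTS1 and ADAMTS4, lower, where 2.59% of all tested genes were higher and 1.53% lower. Without both replicate 1 libraries 6 of 44 members were DEGs, all lower in the pony, where 2.64% of all tested genes were lower and 3.38% higher: ADAMTS1, ADAMTS8, MMP9, MMP13, MMP16 and MMP17.

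MMP13 was the member that differed in every one of these fits. It was at 0.06, 0.23 and 0.07 RPKM in DPPA and at 1.60, 3.58 and 3 RPKM in MHPA, a log2 fold change of -4.26 with an SE of 0.64 (adjusted p = 0.36). In juveniles it was at 0.23, 0.14 and 0.75 RPKM in DPPJ and at 1.00, 4.45 and 3.29 RPKM in MHPJ. All 6 pony pituitaries were below all 6 Mongolian horse pituitaries for MMP13, while in the adult long bone the pony had the higher level. The pituitary values rest on few reads, 5 to 59 in the pony libraries and 63 to 197 in the horse libraries. The share of all genes separated in this way was not counted, and the part of tissue make-up in the difference was not tested. ADAMTS6 was at 1.43, 0.95 and 1.16 RPKM in DPPA and at 0.60, 0.74 and 0.51 RPKM in MHPA, and gave 1.09 with an SE of 0.33 (adjusted p = 0.503). In juveniles its sign was the opposite, at 0.40, 0.83 and 0.88 RPKM in DPPJ against 1.67, 2.57 and 1.31 RPKM in MHPJ. It was under the fold limit, at 0.86, without DPPA replicate 1, and at 0.92 without MHPA replicate 3.

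The TIMPs were not DEGs between the breeds in the adult pituitary, and TIMP4 was too low to be tested. TIMP2 was at 113, 57.3 and 71.1 RPKM in DPPA and at 95.6, 62.6 and 49.7 RPKM in MHPA, with the highest value of each group in the library with few GH reads. TIMP1 was at 5.92, 10.9 and 6.96 RPKM in DPPA and at 6.04, 9.67 and 11.03 RPKM in MHPA. TIMP3 was at 44.4, 32.4 and 40.0 RPKM in DPPA and at 38.8, 33.7 and 25.8 RPKM in MHPA, and TIMP4 at 0.38, 0.27 and 0.07 RPKM in DPPA and at 0.74, 0.33 and 0.10 RPKM in MHPA. The ranges of the groups overlapped for all 4 genes.

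Some members were higher in the 5 libraries with few GH reads. DPPA replicate 1 was the only pony library among these, and 3 of them were the whole MHPJ group. ADAM23 was between 7.24 and 28.2 RPKM in those 5 libraries and between 1.75 and 5.94 RPKM in the other 7, and ADAM11 between 0.74 and 8.86 RPKM against 0.09 to 0.45 RPKM. ADAMTS20 was between 5.69 and 17.5 RPKM against 0.17 to 2.41 RPKM. None of these 3 genes overlapped between the 5 and the 7 libraries, nor did ADAM10, ADAM19, ADAMTS19, ADAMTSL5, MMP7 and TIMP2. ADAMTSL5 had at most 8 reads in any pituitary library. MMP7 was between 81.9 and 133 RPKM against 46.4 to 59.5 RPKM, and TIMP2 between 84.9 and 194 RPKM against 49.7 to 71.7 RPKM. The share of all genes without such an overlap was not counted. MHPA replicate 1 stood out in others, with 81.8 RPKM of ADAM28, a metalloprotease of lymphoid cells, where every other pituitary library had at most 20.7 RPKM, and with 39.2 RPKM of ADAMTS1.

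The stage comparisons asked which members differed between juveniles and adults of a breed. In the Mongolian horse pituitary (MHPJ against MHPA) 49 members could be tested and 11 were DEGs higher in juveniles, where 4.5% of all tested genes were. None was a DEG lower, where 3.24% were. None passed the adjusted p in edgeR, where 12 had an unadjusted P under 0.05 (11.7% of all tested genes), and 6 did in DESeq2 (4.13% of all genes). The comparison shares its MHPJ libraries with the juvenile breed comparison, and 1 of its 3 adult libraries also had few GH reads.

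ADAMTS6, given above for MHPJ and MHPA, had a log2 fold change of 1.78 with an SE of 0.385 (adjusted p = 0.346). ADAM23 was at 18.1, 11.6 and 28.2 RPKM in MHPJ and at 7.24, 5.94 and 4.82 RPKM in MHPA, and gave 1.85 with an SE of 0.43 (adjusted p = 0.346). MMP21, at 0.43, 0.35 and 0.62 RPKM in MHPJ and at 0.07, 0.11 and 0.15 RPKM in MHPA, gave 2.25 with an SE of 0.53 (adjusted p = 0.348). ADAMTS14 was at 0.84, 3.11 and 0.71 RPKM in MHPJ and at 0.29, 0.26 and 0.19 RPKM in MHPA, and gave 2.85 with an SE of 0.755 (adjusted p = 0.365). Without MHPJ replicate 2 the value of ADAMTS14 was 1.79. These 4 calls and that of MMP17, which had a log2 fold change of 1.94 with an SE of 0.55 (adjusted p = 0.37), held without each library.

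MMP17 was at 1.51, 6.14 and 5.62 RPKM in MHPA, so its lowest value was in the adult library poor in GH, opposite to ADAM23. ADAMTS8, at 0.13, 0.30 and 0.40 RPKM in MHPA, gave 5.04 with an SE of 1.46 (adjusted p = 0.375) and was no DEG without MHPA replicate 1, at 4.77, while it was 2.37 without MHPJ replicate 2. ADAM11, at 0.74, 0.13 and 0.09 RPKM in MHPA, gave 4.02 with an SE of 1.22 (adjusted p = 0.382), and was lost at 3.27 and 3.64 without MHPJ replicate 3 and MHPA replicate 2. ADAM19, at 1.81, 1.17 and 0.79 RPKM in MHPA, gave 1.61 with an SE of 0.52 (adjusted p = 0.391), and was lost at 1.27 and 1.51 without MHPJ replicate 2 and MHPA replicate 2. The other DEGs were ADAMTS17 at 2.25, ADAMTS2 at 1.97 and ADAM15 at 1.23 on the log2 scale, and without MHPJ replicate 2 they were 1.33, 0.74 and 0.56. These 3 were also lost without any of several other libraries.

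In the Debao pony pituitary (DPPJ against DPPA) 44 members could be tested. None was a DEG higher in juveniles, where 0.929% of all tested genes were, and 2 were DEGs lower, where 2.64% were. None passed the adjusted p in edgeR, where 6 had an unadjusted P under 0.05 (11.7% of all tested genes), or in DESeq2 (0.79% of all genes). ADAMTSL1 was at 0.83, 1.05 and 0.59 RPKM in DPPJ and at 1.38, 1.21 and 2.33 RPKM in DPPA, a log2 fold change of -1.10 with an SE of 0.33 (adjusted p = 0.419). ADAMTS19, at 1.59, 0.73 and 1.27 RPKM in DPPA, gave -1.33 with an SE of 0.43 (adjusted p = 0.419). Both calls were fragile: ADAMTSL1 was lost without DPPJ replicate 3 or DPPA replicate 3, at -0.89 and -0.83, and ADAMTS19 without DPPJ replicates 2 or 3 or DPPA replicate 1, at -1.23, -1.16 and -0.99. Without DPPA replicate 2 the number of DEGs was 8, where 7.66% of all tested genes were DEGs.

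The long bone showed few differences between the stages in either breed. In the Debao pony (DPLBJ against DPLBA) none of 52 members was a DEG higher in juveniles, where 1.58% of all tested genes were, and 3 were DEGs lower, where 1.56% were. In the Mongolian horse (MHLBJ against MHLBA) 1 of 52 members was a DEG higher in juveniles, where 0.763% of all tested genes were, and 1 lower, where 2.14% were. No member passed the adjusted p in either breed in edgeR, where 3 and 2 had an unadjusted P under 0.05 (4.31% and 4.27% of all tested genes), or in DESeq2 (0.109% and 0.336% of all genes), and the lowest adjusted p of any member was 0.988 and 0.998.

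In the pony, ADAMTS12 gave a log2 fold change of -1.11 with an SE of 0.36 (adjusted p = 0.988) and MMP14 -1.07 with an SE of 0.40 (adjusted p = 0.988), from the levels given above. ADAMTS12 was lost without DPLBJ replicate 3 or DPLBA replicate 1, at -0.95 and -0.78, and MMP14 without DPLBJ replicates 1 or 2 or DPLBA replicate 3, at -1.03, -0.77 and -0.85. In the horse, MMP16, an activator of pro-MMP2, was at 38.3, 91.8 and 72.8 RPKM in MHLBJ and at 12.5, 36.0 and 34.6 RPKM in MHLBA, and gave 1.21 with an SE of 0.37 (adjusted p = 0.998), and 0.89 without MHLBJ replicate 2.

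MMP3 was lower in juveniles of both breeds by the call, each time with a single high adult library. It was at 0.06, 1.30 and 0.29 RPKM in DPLBJ and at 0.90, 28.3 and 0.86 RPKM in DPLBA, a log2 fold change of -4.18 with an SE of 1.65 (adjusted p = 0.988). It was at 0.17, 0.16 and 0.58 RPKM in MHLBJ and at 0.07, 0.26 and 25.45 RPKM in MHLBA, a log2 fold change of -4.68 with an SE of 1.91 (adjusted p = 0.998). Without DPLBA replicate 2 the pony value was -0.53, and without MHLBA replicate 3 the horse value was 0.64, neither a DEG. Other members that were high in a single library were ADAMTS16, at 9.21 RPKM in MHLBA replicate 1 and at most 1.21 RPKM in the other 23, and ADAMTSL1, at 16.8 RPKM in MHPJ replicate 2 and at most 2.67 RPKM elsewhere. Leaving out MHLBA replicate 2, the adult horse library with high MMP13 and MMP9, raised the number of DEGs between the Mongolian horse stages from 2 to 11, where 4.9% of all tested genes were DEGs.

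Whether the breed difference changed with stage was tested as an interaction within each tissue. In the pituitary 50 members could be tested and none passed an adjusted p under 0.05 in edgeR, where 15 had an unadjusted P under 0.05, as did 20.4% of all tested genes, of which 0% passed the adjusted p. In DESeq2 4 passed, namely ADAM11, ADAM23, ADAMTS6 and ADAMTS8, where 8.79% of all genes did. The lowest P was that of ADAMTS6, with an interaction of -2.66 on the log2 scale and an SE of 0.525 (adjusted p = 0.131). In the long bone 55 members could be tested and none passed the adjusted p in edgeR, where 0% of all tested genes did, or in DESeq2, where 0.0913% did, and only ADAMTS12 had an unadjusted P under 0.05 in edgeR, where 4.48% of all tested genes did, at -1.58 with an SE of 0.57 (adjusted p = 0.971). Members that were DEGs at a single stage in the long bone are therefore not shown to differ in their breed effect between the stages.

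Genes that act on or with these proteases were examined as 2 further lists. Of 26 activators and other regulators, 25 were found, among them the plasminogen activators, the furin-like convertases that activate membrane-type MMPs, the tetraspanins that escort ADAM10, and RECK. Between the tissues 10 of 25 were higher in the long bone, including PLAU, PLAUR and FURIN, and 7 were lower, including PLAT, A2M and SPOCK2, where 17.1% and 21.2% of all tested genes were. Between the breeds PCSK5 and SPOCK1 were among the DEGs lower in the pony long bone in juveniles, A2M and SERPINF2 among those lower in adults, and TSPAN33 was higher in juveniles. In the juvenile pituitary 5 of 23 were DEGs lower in the pony, where 12.7% of all tested genes were, namely LRP1, PLAT, SPOCK1, TSPAN15 and TSPAN17.

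Of 20 matrix substrates, 18 were found. In the juvenile long bone 9 of 15 tested were DEGs higher in the pony, where 8.33% of all tested genes were, namely ACAN, COL1A2, COL2A1, COL3A1, COMP, DCN, FMOD, FN1 and MATN3, and none was lower. In the adult long bone 9 of 15 were DEGs higher in the pony, where 10.3% of all tested genes were, with ACAN, COL3A1, COMP, DCN, FMOD, FN1 and MATN3 again among them beside BGN and VCAN. The aggrecan gene ACAN had log2 fold changes of 7.67 with an SE of 2.05 in juveniles and 4.50 with an SE of 1.24 in adults, and the COMP gene of 6.73 with an SE of 1.28 and 4.00 with an SE of 1.22. In juveniles ACAN rested on 2 of the 3 ponies, at 0.22, 41.5 and 173 RPKM in DPLBJ and at 0.56, 0.07 and 0.48 RPKM in MHLBJ, so DPLBJ replicate 1 lay within the range of the horses. COMP was at 12.3, 87.4 and 446 RPKM in DPLBJ and at most 2.43 RPKM in MHLBJ. These were the comparisons in which ADAMTS1, ADAMTS5 and ADAMTS12 were lower. Summed over the list, the substrates ranged from 4838 to 13540 RPKM in DPLBA against 613 to 3663 RPKM in MHLBA. COL1A2, not among the adult DEGs, was the highest substrate in each of these libraries. It was at 1631, 10631 and 4545 RPKM in DPLBA and at 258, 2800 and 461 RPKM in MHLBA. The part of the ADAMTSs in the substrate levels was not tested.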

How the data were processed

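Total RNA of 24 libraries was depleted of ribosomal RNA and sequenced on an Illumina instrument from directional libraries. The sources name both TopHat2 and Salmon for mapping to EquCab3.0 and 2 different sequencers, and which of them made the tables was not given in the sources used here, nor whether counting used strand. The authors deposited read counts per gene for 24232 genes and RPKM per gene for 24248 genes, the RPKM being scaled by the gene length in the file and by more reads than were counted on genes. Members were taken by name, but the families and the gene lists were chosen with earlier results of these data known.

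Counts were tested in edgeR 4.0.16 (R 4.3.3) with TMM factors, filterByExpr at a minimum count of 10 and the quasi-likelihood test, on the 6 libraries of each comparison, or on all 24 libraries for the tissues and 12 for each interaction. The adjusted p is Benjamini-Hochberg over all tested genes and SE is the log2 fold change over the square root of F. RPKM served for levels. DESeq2 1.42.0, limma 3.58.1 on log2(RPKM + 1) and log2(RPKM + 0.1), no filter, a replicate block and leaving out each library were alternatives. Scripts were tested on simulated data with 200 changed genes. Named members were the 4 TIMPs, up to 8 DEGs of lowest P per comparison (others by fold change), the 8 largest tissue differences each way and the 5 highest means per tissue. Others were named after their values were seen. A regulator gene is not reported here.

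Same-numbered libraries of DPPA and MHPA deviated together from their group means (r = 0.643, 0.532 and 0.350 across genes), so the blocked fit stands beside that comparison, although no label ties the numbers to a shared day or batch. No libraries were identical, and depth limits the genes with few reads.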

Additional observations from a re-analysis of the deposited data

How the results depend on the processing

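Of 1545 recomputed values of named members, 1299 kept their direction and call, 242 kept the direction but not the call, and 4 turned: MMP3 to 0.64 between the Mongolian horse long bone stages without MHLBA replicate 3, and in the tissue comparison ADAMTS19 to 1.43 in DPLBJ against DPPJ alone, MMP8 to -0.60 in MHLBJ against MHPJ alone and ADAMTS20 to 0.24 without the 5 pituitary libraries with few GH reads, an alternative chosen after seeing the data. By the adjusted p, the member DEGs numbered 6 for DPPJ against MHPJ, 3 for DPLBA against MHLBA and 0 for the other 6 comparisons of 2 groups. Leaving out single libraries gave 13 to 27 for DPPJ against MHPJ, 3 to 6 for DPPA against MHPA, 5 to 16 for DPLBJ against MHLBJ, 12 to 20 for DPLBA against MHLBA, 2 to 8 for DPPJ against DPPA, 7 to 12 for MHPJ against MHPA, 2 to 7 for DPLBJ against DPLBA, 1 to 11 for MHLBJ against MHLBA, 43 to 49 between the tissues and 0 to 2 for the pituitary interaction.

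For DPPA against MHPA the count was 5 without the filter, 4 with all 12 libraries, 4 with the replicate block, 1 with limma at either pseudocount and 6 without both replicate 1 libraries. For DPPJ against DPPA it was 4 with DESeq2, 5 without the filter, 0 with all 12 libraries, 1 with the replicate block and 0 with limma on log2(RPKM + 1). Limma gave 10 for DPPJ against MHPJ at the pseudocount of 1, 6 and 8 for DPLBJ against MHLBJ at 1 and 0.1, 4 for MHPJ against MHPA at 1 and 1 for MHLBJ against MHLBA at either, which gave 4 without the filter. The tissue comparison called 21 members in MHLBJ against MHPJ alone and 24 in MHLBA against MHPA alone, and DESeq2 called 4 in the pituitary interaction. Without single libraries the median of the members ranged from -0.309 to 0.355 for DPPA against MHPA (0.0658 without DPPA replicate 2), from -0.549 to 0.0538 for DPPJ against DPPA and from -0.263 to 0.135 for DPLBJ against DPLBA, and MMP3 between the Mongolian horse long bone stages from -5.55 to 0.64. The share of all tested genes called in each of these fits is not given beside the counts of this section. Where it was counted it also moved. By the adjusted p for DPPJ against MHPJ it was 8.73% with all libraries and 26.9% without MHPJ replicate 2. Changes in the counts are therefore not read as results about the members. The cause of the changes in counts and medians was not tested. Other comparisons shared only a replicate number, and the block left their counts within 1.5 times except as given. Genes with few reads, such as MMP21 with at most 36 in any library, are limited by depth.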

Other observations

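A further interstitial collagenase, listed as MMP-1 with a hyphen and so not among the 62 members, had between 3 and 144 reads in the pituitary libraries and between 7 and 264 reads in the long bone libraries, and its highest level was 6.69 RPKM in DPLBJ replicate 2.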
